A study of Mus musculus with 10 samples.

Results

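The p38 MAP kinases and their dedicated activators are 6 genes, Mapk14 (p38α), Mapk11 (p38β), Mapk12 (p38γ), Mapk13 (p38δ), Map2k3 (MKK3) and Map2k6 (MKK6), and were taken by name from tables of 53656 genes. All 6 were found, and all 6 passed the filter on low counts that left 14214 genes for testing. The genes were chosen by their CPM (counts scaled to library size) in TOX KO against TOX WT libraries, so their values in the 2 genotypes are a description and carry no p-value. RNA was sequenced from 6 libraries of TOX KO and 4 libraries of TOX WT SMARTA CD4 T cells, which carry a transgenic T cell receptor against the GP61 peptide. Both kinds of cell were transferred as naive cells into cytoxan-treated B6 mice bearing B16-GP61 melanoma, and were sorted from the tumour-draining lymph node 11 days later. TOX KO cells were sorted as Ly5.1+ Ly5.2- and low for PD1, LAG3 and CD39. TOX WT cells were sorted as Ly5.1+ Ly5.2+ and high for PD1, LAG3 and CD39. The effects of genotype, sort gate and congenic marker cannot be told apart. Neither the animals behind the replicates, the TOX allele nor a driver of deletion is named in the labels. The spread that p-values rest on is that of the libraries and may be technical.

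p38 kinases are the stress- and cytokine-responsive arm of the MAP kinase family. Upstream kinases activate MKK3 and MKK6, which phosphorylate a threonine and a tyrosine in the activation loop of p38, and active p38 passes the signal to MAPKAP kinases, MSK kinases and transcription factors such as ATF2 and MEF2. In T cells p38 takes part in interferon-γ production, and T cells can also activate p38α and p38β through a phosphorylation that follows antigen receptor signalling and does not need MKK3 or MKK6. p38α is the broadly expressed member, p38γ is known from muscle, and p38γ and p38δ respond poorly to the classical p38 inhibitors.

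The 4 kinases are separate genes with closely related sequence, so the coding sequence around the Thr-Gly-Tyr activation motif is shown, 33 bases on the coding strand from transcripts of GENCODE M21 on GRCm38, with the 3 motif codons in capitals. The stretches lie within 1 exon each, at chr15:89145854-89145886 (minus strand) for Mapk11, chr15:89134664-89134696 (minus strand) for Mapk12, chr17:28776332-28776364 (plus strand) for Mapk13 and chr17:28728387-28728419 (plus strand) for Mapk14.
Mapk11: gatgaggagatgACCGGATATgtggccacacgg
Mapk12: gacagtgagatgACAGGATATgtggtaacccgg
Mapk13: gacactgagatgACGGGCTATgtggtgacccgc
Mapk14: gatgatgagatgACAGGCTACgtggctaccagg
The pairs were identical at 23 to 28 of the 33 bases, with Mapk12 and Mapk13 the closest pair at 28 and Mapk11 and Mapk13 the most different at 23. Even here no stretch as long as a read was common to any pair of the 6 genes: none of the 50-base words of their transcripts occurred in another member. Mapk12 was the only member with words found in other genes, 86 of 4086 words or 2.10%. Otud7b, Ilf2 and 6030458C11Rik had the most matches, and any further genes that share them were not listed.

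Mapk11 and Mapk12 lie side by side on chromosome 15 of GRCm38, both on the minus strand. Mapk12 spans 89130584 to 89140703 and Mapk11 spans 89142486 to 89149628, with 1782 bases between them. No exon base of either gene was shared with the other or with any gene on either strand, and no other gene's span overlapped them. The same held for Mapk14 (chromosome 17, 28691342 to 28748404, plus strand) and Mapk13 (chromosome 17, 28769307 to 28778698, plus strand), which lie 20902 bases apart. It held as well for Map2k3 (chromosome 11, 60932033 to 60952811, plus strand) and Map2k6 (chromosome 11, 110399122 to 110525522, plus strand). Counting by exon overlap with no strand option, as the file headers give it, could thus not exchange annotated exon reads between these genes.

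Depth was 36028980 to 55784453 counts in TOX KO and 31939816 to 45481478 counts in TOX WT libraries, and 3 counts corresponded to 0.0554 to 0.0856 CPM on TMM-scaled library sizes. Tox, the targeted gene, averaged 31.0 ± 20.8 CPM in TOX KO and 236 ± 88.0 CPM in TOX WT (SD, n = 6 and 4), a log2 fold change of -2.93 (adjusted p = 0.010 by edgeR, SE 0.48). Of the genes behind the gate, Pdcd1 (PD1) ranged from 326 to 515 CPM in TOX KO and from 812 to 1564 CPM in TOX WT. Entpd1 (CD39) ranged from 0.0284 to 18.4 CPM in TOX KO and from 15.6 to 139 CPM in TOX WT. Lag3 did not follow the gate: it ranged from 83.4 to 427 CPM in the LAG3-low TOX KO libraries, against 320, 7.53, 36.2 and 8.96 CPM in the LAG3-high TOX WT replicates 1 to 4. Summed T cell markers ranged from 26200 to 37784 CPM in TOX KO and from 11782 to 26345 CPM in TOX WT, so the labelled cell type was present in every library. Summed B cell and plasma cell markers ranged from 1045 to 2024 CPM in TOX KO and from 8066 to 66394 CPM in TOX WT, with 10 of 15 genes lower in TOX KO and none at 0 throughout a group. Summed myeloid markers ranged from 5.13 to 248 CPM in TOX KO and from 1538 to 7763 CPM in TOX WT, with 4 of 18 tested genes lower and Clec9a at 0 in every TOX KO library. Natural killer cell markers summed to 168 to 274 CPM in TOX KO and 14.9 to 67.4 CPM in TOX WT. Of them Klrb1c averaged 224 CPM in TOX KO and 32.0 CPM in TOX WT, and Ncr1 0.593 CPM in TOX KO and 5.35 CPM in TOX WT. The library names carry numbers. A first set is numbered 1 to 3 (TOX KO replicates 1 to 3 and TOX WT replicate 1). A second is numbered 4 to 8 (TOX KO replicates 4 to 6 and TOX WT replicates 2 to 4). Correlations between libraries, given below, followed these sets. The first set held 11396 to 12907 genes with at least 10 counts and the second 12868 to 14933, ranges that overlapped. The labels do not say what the numbers mark, and each member is given for both sets.

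Among the 6 genes, Mapk11 and Mapk12 were higher in TOX KO cells, while Mapk14, Map2k3, Mapk13 and Map2k6 had overlapping values in TOX KO and TOX WT cells. By edgeR's quasi-likelihood test with Benjamini-Hochberg adjustment over all genes, 2 of 6 members were called higher in TOX KO, beside 0.429% of all tested genes, and 0 were called lower, beside 2.7% (3.13% in either direction). The values of 2 of 6 lay without overlap higher in TOX KO, beside 2.59% of all tested genes, and 0 lower, beside 6.31% (8.9% in either direction). Since these levels entered the choice of the genes, the shares are given for reference only. In bulk RNA, fewer cells of a type and less RNA per cell cannot be told apart.

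**Figure D1:**
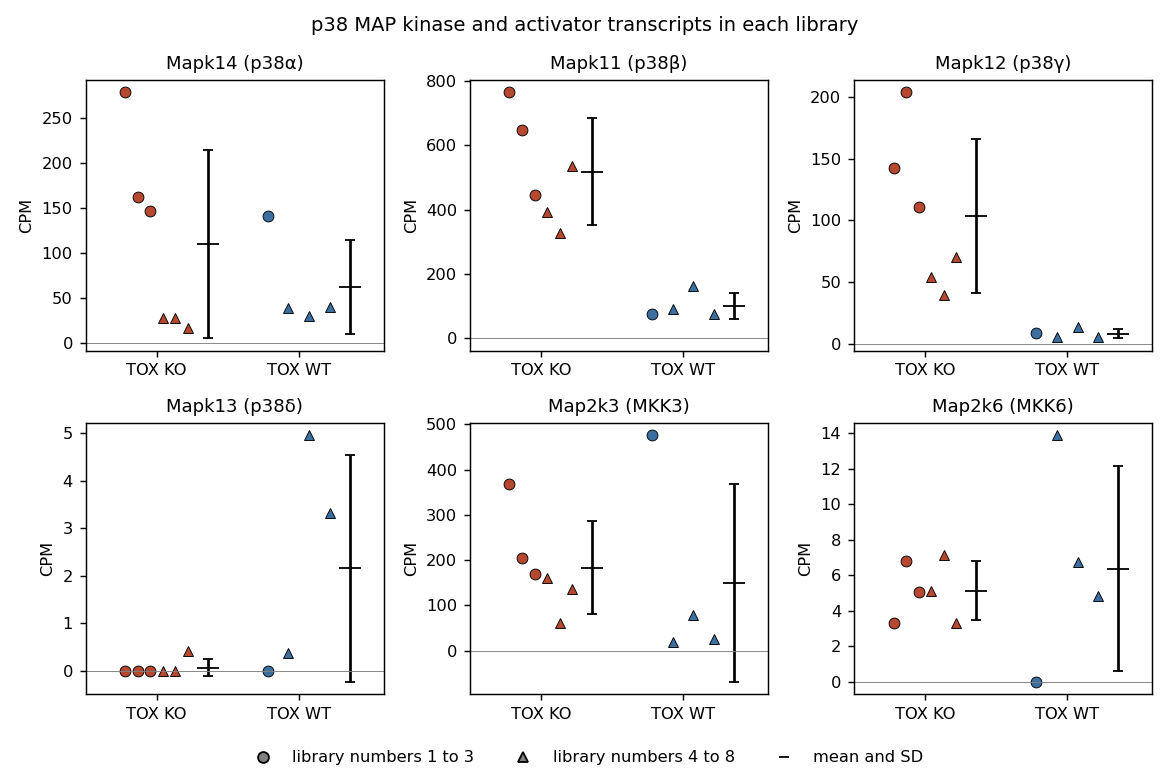
CPM of each p38 kinase and activator in TOX KO (left, red) and TOX WT libraries (right, blue), with circles for library numbers 1 to 3, triangles for numbers 4 to 8, and the mean with its SD in black (n = 6 and 4). Each panel has its own linear axis. Every TOX KO library lies above every TOX WT library for Mapk11 and Mapk12, and Mapk14 separates by library number.

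Mapk14 encodes p38α, the isoform most studied in immune cells and the usual target of p38 inhibitors. It had a lowest, median and highest value of 16, 87.1 and 279 CPM in TOX KO, against 141, 38.5, 29.2 and 39.2 CPM in TOX WT replicates 1 to 4. The groups overlapped, and the log2 fold change of 0.83 was about as large as its SE of 0.85. The libraries separated by number instead. In numbers 1 to 3 the TOX KO libraries held 279, 162 and 147 CPM, against 141 CPM in the single TOX WT library. In numbers 4 to 8 the TOX KO libraries held 27.4, 26.9 and 16 CPM, against 38.5, 29.2 and 39.2 CPM in TOX WT. The ratio of TOX KO to TOX WT was thus 1.39 in the first set and 0.657 in the second, with each set free of overlap but in opposite directions.

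Mapk11 encodes p38β, a close relative of p38α that is sensitive to the same inhibitors. It had a lowest, median and highest value of 327, 491 and 766 CPM in TOX KO, against 75.1, 90.4, 162 and 76.0 CPM in TOX WT replicates 1 to 4. The lowest TOX KO library stood above the highest TOX WT library. The means were 519 ± 165 CPM in TOX KO and 101 ± 41.6 CPM in TOX WT (SD, n = 6 and 4), a log2 fold change of 2.36 with an SE of 0.35, or 5.14-fold. The ratio of means was 8.25 in library numbers 1 to 3, where TOX KO held 766, 647 and 446 CPM and the TOX WT library 75.1 CPM. It was 3.82 in numbers 4 to 8, where TOX KO held 392, 327 and 536 CPM and TOX WT 90.4, 162 and 76.0 CPM. The direction was the same in both sets.

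Mapk12 encodes p38γ. It had a lowest, median and highest value of 39.7, 90.5 and 204 CPM in TOX KO, against 8.51, 5.42, 13.1 and 4.99 CPM in TOX WT replicates 1 to 4. Again every TOX KO library exceeded every TOX WT library. The means were 104 ± 62.2 CPM in TOX KO and 8.01 ± 3.75 CPM in TOX WT (SD, n = 6 and 4), a log2 fold change of 3.69 with an SE of 0.59, or 12.9-fold. In library numbers 1 to 3 TOX KO held 143, 204 and 111 CPM, against 8.51 CPM in TOX WT. In numbers 4 to 8 TOX KO held 53.7, 39.7 and 70.3 CPM, against 5.42, 13.1 and 4.99 CPM in TOX WT. TOX KO libraries of the first set were all above those of the second, and the ratio of means was 17.9 in the first and 6.96 in the second. The TOX WT counts behind these values were small but not near 0, from 177 to 493 per library, against 1803 to 9609 in TOX KO.

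The T cell marker sums that accompany these differences averaged 31562 ± 4062 CPM in TOX KO and 18233 ± 6124 CPM in TOX WT (SD, n = 6 and 4), a ratio of 1.73. TOX WT replicate 1, whose T cell marker sum of 26345 CPM lay within the TOX KO range, held 75.1 CPM of Mapk11 and 8.51 CPM of Mapk12. Both values lay below every TOX KO library. Its B cell and myeloid marker sums of 8066 and 1538 CPM lay above every TOX KO library. The part of cell content in the Mapk11 and Mapk12 differences was not tested. Scaling to 8 genes of the T cell receptor complex and Cd4 moved the log2 median of all genes to -0.92 from -0.12. The log2 fold change was then 1.5 for Mapk11, which was no longer called, and 2.89 for Mapk12, which was still called. Both calls are for reference only, since the levels entered the choice of the genes.

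Mapk13 encodes p38δ, known from epithelia and myeloid cells. It had 0 counts in TOX KO replicates 1 to 5 and 19 counts in replicate 6, or 0.428 CPM, against 0, 13, 186 and 118 counts in TOX WT replicates 1 to 4, or 0, 0.371, 4.95 and 3.32 CPM. The 3 TOX WT libraries with reads were those of numbers 4 to 8, replicates 2 to 4. Their B cell marker sums were 36658, 31876 and 66394 CPM, and their myeloid marker sums 2730, 2391 and 7763 CPM. TOX WT replicate 1 without reads had sums of 8066 and 1538 CPM. Replicate 3, with the most Mapk13, had the lowest sum of either kind among the 3. The part of other cells in these reads was not tested. The fitted log2 fold change of -4.86 (SE 2.02) depends on the zeros and the groups overlapped.

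Map2k3 encodes MKK3, an activator of p38α, p38γ and p38δ. It had a lowest, median and highest value of 60.6, 165 and 367 CPM in TOX KO, against 476, 20.1, 78.9 and 25.9 CPM in TOX WT replicates 1 to 4. One TOX WT library was the highest of all 10 and the other 3 were within or below the TOX KO range. The means were 183 ± 102 CPM in TOX KO and 150 ± 219 CPM in TOX WT (SD, n = 6 and 4), a log2 fold change of 0.29 with an SE of 0.84. Without TOX WT replicate 1 the log2 fold change was 2.14. In library numbers 1 to 3 TOX KO ranged from 168 to 367 CPM, against 476 CPM in the single TOX WT library. The ratio of means was 0.519. In numbers 4 to 8 TOX KO averaged 119 CPM and TOX WT 41.6 CPM. Their ranges overlapped, at 60.6 to 161 and 20.1 to 78.9 CPM. The ratio of means was 2.86, opposite in direction to the first set, and this difference was not tested.

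Map2k6 encodes MKK6, which can activate all the p38 kinases. Its lowest, median and highest values were 3.29, 5.08 and 7.15 CPM in TOX KO, against 0, 13.9, 6.74 and 4.84 CPM in TOX WT replicates 1 to 4. Apart from the TOX WT library at 0 and the one at 13.9 CPM, all libraries lay close together. The log2 fold change was -0.31 with an SE of 1.09. In library numbers 1 to 3 TOX KO ranged from 3.32 to 6.82 CPM, and the TOX WT library was at 0. In numbers 4 to 8 TOX KO averaged 5.18 CPM and TOX WT 8.49 CPM.

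Levels of different genes were compared per kilobase of exon, with all annotated exons of a gene in the length. That length was 3805 bases for Mapk12 and 1512 for Mapk13. Their longest transcripts in GENCODE M21 have 1928 and 2937 bases. The order of levels and the shares depend on the length used. In TOX KO cells Mapk11 was the most abundant of the 6 at 180 ± 57.2 CPM per kb, and its range of 113 to 265 lay just above that of Map2k3, at 18.3 to 111. Map2k3 at 55.2 ± 30.9, Mapk12 at 27.2 ± 16.3 and Mapk14 at 25.2 ± 24.1 CPM per kb followed with overlapping ranges, although Map2k3 exceeded Mapk12 in 6 of 6 libraries. Map2k6 at 1.49 ± 0.479 and Mapk13 at 0.0472 ± 0.116 CPM per kb were the lowest (SD, n = 6 each). In TOX WT cells the order was Map2k3 at 45.3 ± 66.0, Mapk11 at 35.0 ± 14.4 and Mapk14 at 14.2 ± 12.1 CPM per kb, with overlapping ranges. Map2k3 led by its mean but exceeded Mapk11 in 1 of 4 libraries. Mapk12 at 2.10 ± 0.986, Map2k6 at 1.85 ± 1.67 and Mapk13 at 1.43 ± 1.58 CPM per kb stood below and overlapped each other (SD, n = 4 each).

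The 4 kinases summed to 232 ± 91.7 CPM per kb in TOX KO and 52.7 ± 14.9 CPM per kb in TOX WT (SD, n = 6 and 4). Mapk11 made up 79.7% ± 8.96 of that sum in TOX KO and 66.6% ± 16.6 in TOX WT, and was the highest of the 4 in 6 of 6 TOX KO and 3 of 4 TOX WT libraries. In TOX WT replicate 1 Mapk14 was the highest, at 53.3% of the sum, against 43.0% for Mapk11. Mapk12 made up 11.1% ± 3.46 in TOX KO, from 8.04% to 17%, and 3.86% ± 0.743 in TOX WT, from 3.38% to 4.95%. Mapk14 made up 9.22% ± 6.58 in TOX KO and 26.8% ± 18.7 in TOX WT, with overlapping ranges. Mapk11 over Mapk12 per kb was 4.18 to 10.8 in TOX KO and 11.6 to 22 in TOX WT, without overlap. Of the activators, Map2k3 exceeded Map2k6 per kb in every library with Map2k6 counts, by 8.80 to 115 times in TOX KO and by 1.5 to 12.2 times in TOX WT.

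**Figure D2:**
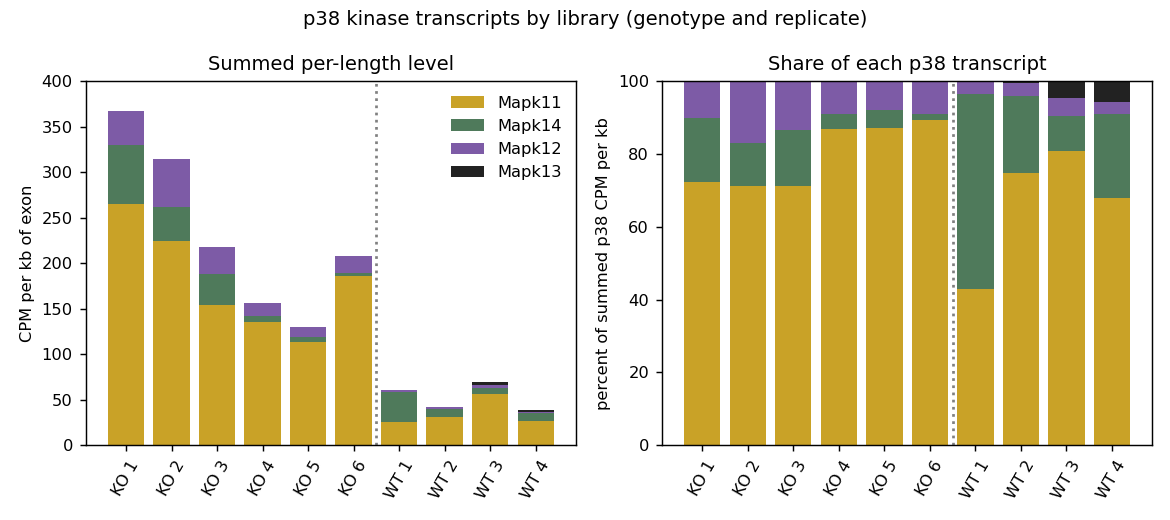
Stacked bars of the 4 p38 kinases in each library, TOX KO replicates 1 to 6 left of the dotted line and TOX WT replicates 1 to 4 right of it, as CPM per kb of exon (left panel) and as percent of their sum (right panel). Mapk11 is the largest part in 9 of 10 libraries, and Mapk14 leads in TOX WT replicate 1 at 53.3%.

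Because Mapk11 and Mapk12 adjoin each other, the genes around them were examined, which the choice of the members did not use. Within 100 kb there were 13 other genes, 9 of them tested. By edgeR 0 of the 9 were called in either direction, beside 3.13% of all tested genes. With so few genes, 0 called is near that share. Hdac10, the histone deacetylase gene next to Mapk12, averaged 184 ± 56.0 CPM in TOX KO and 186 ± 98.6 CPM in TOX WT (SD, n = 6 and 4), a log2 fold change of -0.02 (adjusted p = 0.99 by edgeR, SE 0.45). Plxnb2, a semaphorin receptor gene and the next tested gene on the side of Mapk11, averaged 9.0 ± 6.72 CPM in TOX KO and 33.3 ± 27.0 CPM in TOX WT (SD, n = 6 and 4). Its log2 fold change was -1.89 (adjusted p = 0.48 by edgeR, SE 1.32), the lowest of the 9. The highest was 1.58 for Ppp6r2, a regulatory subunit of a protein phosphatase (adjusted p = 0.24 by edgeR, SE 0.66). Around Mapk14 and Mapk13, 2 neighbours were tested, and around Map2k3 5 were, with 0 called in each case, beside the same 3.13%.

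**Figure D3:**
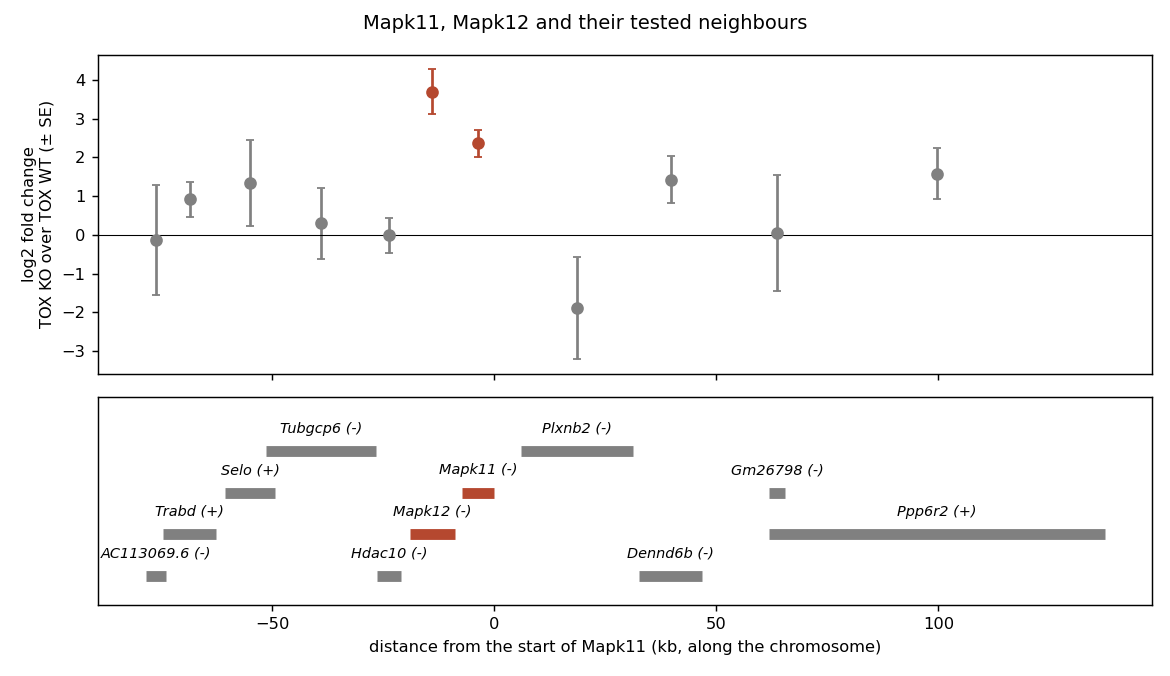
Log2 fold change of TOX KO over TOX WT with its SE (upper panel) for Mapk11 and Mapk12 (red) and the 9 tested genes within 100 kb (grey), placed at the middle of each gene, and the span and strand of each gene (lower panel), in kb from the start of Mapk11. The neighbours lie between -1.89 and 1.58, below both kinases.

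The sequence before each of the 2 starts is shown because these adjacent genes were both higher in TOX KO. It is the 200 bases upstream of the annotated first exon, 5′ to 3′ on the minus strand, from RefSeq on GRCm38.p6, at chr15:89149629-89149828 for Mapk11 and chr15:89140704-89140903 for Mapk12. Capitals mark matches on either strand to the GC box, GGGCGG. They also mark the E-box, whose letters are CACGTG.
Mapk11: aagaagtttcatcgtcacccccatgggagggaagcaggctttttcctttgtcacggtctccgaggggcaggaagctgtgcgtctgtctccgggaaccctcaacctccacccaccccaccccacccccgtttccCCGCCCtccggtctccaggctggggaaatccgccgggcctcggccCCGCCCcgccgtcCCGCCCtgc
Mapk12: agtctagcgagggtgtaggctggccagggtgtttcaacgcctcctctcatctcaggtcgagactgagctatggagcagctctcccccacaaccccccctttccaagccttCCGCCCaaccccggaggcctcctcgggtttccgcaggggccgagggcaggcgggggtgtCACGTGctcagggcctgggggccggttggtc
The Mapk11 window held 3 GC boxes and the Mapk12 window 1, and the Mapk12 window alone held the E-box, once. Of 32851 RefSeq promoter windows of the same length, 31.0% held the GC box and 5.26% the E-box. The 2 windows shown end at the first exon of the annotation used for counting. The 32851 were cut at a fixed position of each RefSeq promoter sequence, with a single chromosome left out, so their placement can differ. No match in either window, on either strand, was found for the CRE (TGACGTCA), AP-1 (TGANTCA), an EGR motif (GCGTGGGCG) or an ETS motif (CCGGAAG). The windows contained 68.0% and 67.0% G and C for Mapk11 and Mapk12.

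The genes whose pattern over the 10 libraries was nearest to each member were found by the root mean square difference of centred log2 CPM. The search covered 7615 genes that averaged 8 CPM or more. It left out genes with provisional or clone names, mitochondrial genes and the genes of a single chromosome. For Mapk11 they were Zfp668 at 0.31, Il27ra at 0.35 and Scaf1 at 0.38. For Mapk12 they were Myb at 0.49, Egr3 at 0.58 and Nfkbid at 0.63. Mapk12 itself came 233rd for Mapk11, at 0.74. For Mapk14 they were Arglu1 at 0.26, Mark3 at 0.34 and Stk39 at 0.35, and for Map2k3 Lpcat4 at 0.22, Flot2 at 0.26 and Nrbf2 at 0.33.

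Genes above and below p38 were taken as lists that the choice of the members did not use, and were tested in the same fit over all genes. These lists were also chosen with earlier results of these data known, so their shares are given for reference only. Of 64 listed genes 56 were tested, 0 rose and 1 fell by edgeR, beside 0.429% and 2.7% of all tested genes, while 16 (28.6%) had an unadjusted p under 0.05, beside 2554 (18%) of all tested genes. Their median log2 fold change was 0.53, against -0.12 for all tested genes. DESeq2 called 9 higher and 2 lower, and limma-voom called 2 higher, Map2k4 and Zfp36, and 0 lower.

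Of 22 tested upstream kinases and adaptors 0 passed in edgeR, with a median log2 fold change of 0.42 and 5 (22.7%) at an unadjusted p under 0.05, beside 18% of all tested genes. Traf2, an adaptor of TNF receptors and the most abundant of them, averaged 327 ± 51.5 CPM in TOX KO and 253 ± 113 CPM in TOX WT (SD, n = 6 and 4). Its log2 fold change was 0.37 (adjusted p = 0.59 by edgeR, SE 0.32). Map3k11 (MLK3), a kinase that activates MAP kinase kinases, had the largest difference of the list, at 226 ± 193 CPM in TOX KO and 40.5 ± 39.5 CPM in TOX WT (SD, n = 6 and 4). Its log2 fold change was 2.48 (adjusted p = 0.17 by edgeR, SE 0.86), and the groups overlapped. Map3k11 passed in DESeq2 and without TOX WT replicate 1, at 3.32.

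Of 16 tested targets and effectors 0 rose and 1 fell, with a median log2 fold change of 0.65 and 8 (50.0%) at an unadjusted p under 0.05, beside the same 18%. The one that fell was Mef2c, a transcription factor phosphorylated by p38 that is also abundant in B cells and myeloid cells. Its lowest, median and highest values were 0.152, 1.00 and 2.03 CPM in TOX KO, against 1.5, 143, 94.4 and 91.2 CPM in TOX WT replicates 1 to 4. Thus TOX WT replicate 1, which also had the lowest B cell marker sum of its group, lay within the TOX KO range. The log2 fold change was -6.45 (adjusted p = 0.011 by edgeR, SE 1.08), and 6 alternatives lost the call. The log2 fold change stayed near that size in limma-voom at -5.57, with the replicate block at -6.55 and with a term for the library number sets at -5.65. It was smaller with the block by library number at -3.04, with the B cell score at -3.54 and in numbers 1 to 3 alone, which hold 1 TOX WT library, at -0.92. The part of other cells in it was not tested. Zfp36 (tristetraprolin), an mRNA-decay factor that is controlled by MAPKAP kinase 2 and the most abundant effector, averaged 1777 ± 201 CPM in TOX KO and 1062 ± 225 CPM in TOX WT (SD, n = 6 and 4). The groups did not overlap, with TOX KO from 1548 to 2103 CPM and TOX WT from 806 to 1343 CPM. The log2 fold change of 0.74 (adjusted p = 0.083 by edgeR, SE 0.20) missed the threshold. It passed with the term for the library number sets, at 0.83, in DESeq2, at 0.69, in limma-voom, at 0.77, and without TOX WT replicate 3, at 0.88, and was -0.16 when scaled to the T cell receptor genes.

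Of 7 tested phosphatases of p38 0 passed in edgeR, with a median log2 fold change of 0.78 and 2 (28.6%) at an unadjusted p under 0.05, beside 18% of all tested genes. Ptpn7, a haematopoietic tyrosine phosphatase that acts on ERK and p38, averaged 543 ± 160 CPM in TOX KO and 232 ± 116 CPM in TOX WT (SD, n = 6 and 4). Its log2 fold change was 1.23 (adjusted p = 0.11 by edgeR, SE 0.36), and the groups overlapped through TOX WT replicate 3 at 404 CPM. Ptpn7 passed in DESeq2 and without TOX WT replicate 3, at 1.64. Ptpn5, a related phosphatase best known from neurons, averaged 4.18 ± 3.27 CPM in TOX KO and 23.2 ± 20.9 CPM in TOX WT (SD, n = 6 and 4), a log2 fold change of -2.48 (adjusted p = 0.37 by edgeR, SE 1.36).

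Of 11 tested genes of the ERK, JNK and other MAP kinase arms 0 passed in edgeR, with a median log2 fold change of 0.52 and 1 (9.09%) at an unadjusted p under 0.05, below the 18% of all tested genes. The estimates ran from 0.14 to 1.39. Map2k1 (MEK1), a kinase of ERK, had the largest difference of the list, at 91.7 ± 42.3 CPM in TOX KO and 35.0 ± 29.0 CPM in TOX WT (SD, n = 6 and 4), a log2 fold change of 1.39 (adjusted p = 0.27 by edgeR, SE 0.62).

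**Figure D4:**
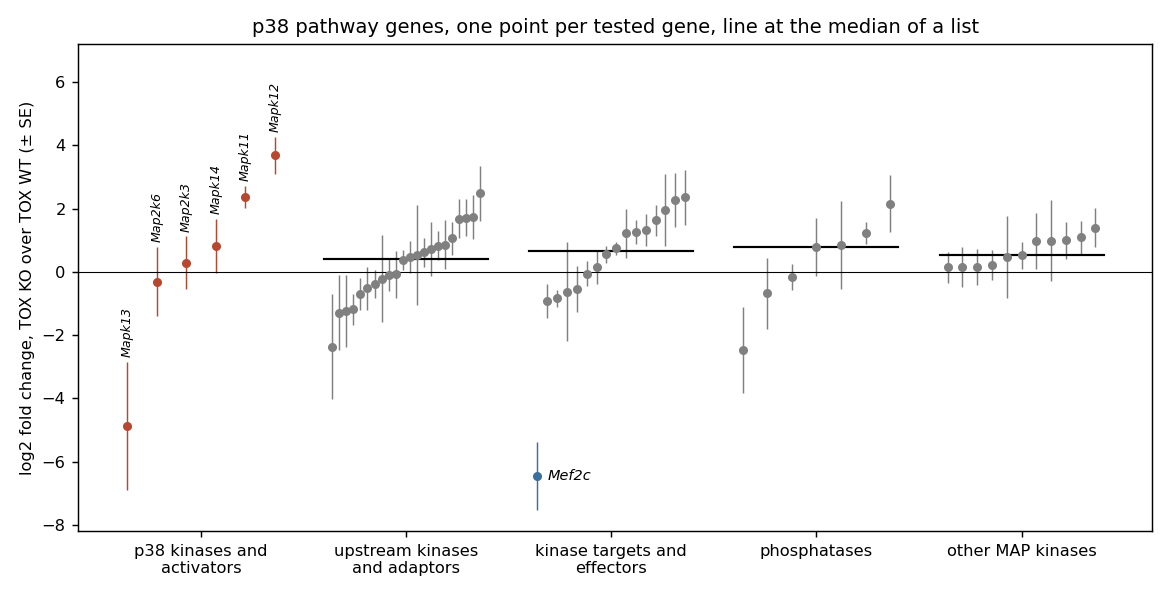
Log2 fold change of TOX KO over TOX WT with its SE for the 6 p38 kinases and activators (red, named) and for each tested gene of 4 pathway lists, with a line at the median of each list. The gene in blue, Mef2c at -6.45, is the one list gene past an edgeR adjusted p of 0.05, and list medians lie between 0.42 and 0.78.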

How the data were processed

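The authors deposited raw counts of read pairs per gene for 10 libraries, made with featureCounts 1.6.2 on GENCODE M17 of GRCm38.p6, with no strand option and without multi-mapping reads, per the file headers. FastQC and STAR are named without a version in the submitters' processing notes. Per the labels' protocols, RNA was amplified with SMART-seq V4 and sequenced in paired 50 bp reads.

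Counts were scaled by TMM and filtered with filterByExpr, and TOX KO was compared with TOX WT over all 10 libraries in a quasi-likelihood model of edgeR 4.0.16 with a single genotype term, under R 4.3.3 with limma 3.58.1, and Benjamini-Hochberg adjustment at 0.05. Each SE was the log2 fold change divided by the root of its F value. A prior count of 2 was added for log2 CPM. The procedure was tested on simulated data. Pairs of libraries within a group all differed by more than sampling noise. The members and gene lists were chosen with earlier results of these data known. Named genes were the members, Tox, the called, most abundant or, where none was called, most different genes of each list, and the nearest patterns. Markers of other cells are given as sums, and 1 gene that the rule names is not reported here. Genes called by another tool were named after their values were seen.

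Alternatives were DESeq2 1.42.0 and its size factors, limma-voom, other filters, scaling to 8 genes of the T cell receptor complex and Cd4, each library left out in turn, the replicate or library number as a block, a term for the library number sets or each set alone, a B cell score as a term and, added after seeing the data, removal of the GC trend.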

Additional observations from a re-analysis of the deposited data

Results flagged for a closer look

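In TOX WT replicate 1, Mapk14 stood at 141 CPM, far from the next TOX WT library at 39.2 CPM. The same library held 476 CPM of Map2k3, with 78.9 CPM in the next. It is the only TOX WT library of numbers 1 to 3, and the TOX KO libraries of those numbers held 147 to 279 CPM of Mapk14. Mapk13 was at 0.428 CPM in TOX KO replicate 6 and at 0 in the other TOX KO libraries. These 3 were found among 28 groups of libraries examined, and chance flags about 1 in 20.

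The ratio of TOX KO to TOX WT for Mapk14 was 1.39 in library numbers 1 to 3 and 0.657 in numbers 4 to 8, with every TOX KO library above the single TOX WT library in the first set and below all TOX WT libraries in the second. This difference was not tested.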

How the results depend on the processing

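Log2 values are of TOX KO over TOX WT. Mapk11 and Mapk12 were higher in TOX KO in all 23 alternatives, though not always called. Calls of members are for reference only, since their levels entered their choice. Those in numbers 1 to 3 alone, which hold 1 TOX WT library, are not given. With receptor scaling Mapk12 was called and Mapk11 was not. Neither was called with either block or with the B cell score. Mapk11 was 1.5 with receptor scaling, 3.08 in library numbers 1 to 3 alone and 3.66 with the B cell score, and Mapk12 was 2.84 in numbers 4 to 8 alone and 4.85 with the B cell score. With that score, whose values do not overlap between the genotypes, Map2k3 was -3.80, Map2k6 3.93, Mapk13 17.2 and Mapk14 -1.20, and no gene was called (0 higher, 0 lower). Without 1 library each, Mapk11 was 2.25 to 2.69, Mapk12 3.44 to 4.04, Mapk13 -5.27 to -4.04, Mapk14 0.40 to 1.63, Map2k3 0.072 to 2.14 and Map2k6 -0.72 to 0.43. Genes called were 10 to 443 higher and 143 to 1201 lower, the upper ends without TOX WT replicate 1 and the lower ends without TOX WT replicate 4. Pathway genes called were 0 to 5 higher and 1 to 4 lower.

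Same-numbered replicates correlated at -0.25 to 0.30 over 4 pairs, and the 2 pairs sharing a library number at 0.13 and 0.32. Correlations followed the library number sets. TOX WT replicate 1 correlated at 0.29 to 0.32 with TOX KO replicates 1 to 3 and at -0.40 to -0.26 with replicates 4 to 6. The correlations thus cannot decide whether either numbering pairs the samples. Under neither numbering did each sample correlate best with its own number. The replicate block called 0 genes higher and 0 lower, Mapk11 being 2.51, Mapk12 3.94 and Mapk13 -9.17. The replicate block by library number also called 0 and 0, with Mapk11 2.06, Mapk12 3.09, Mapk13 -9.18 and Map2k6 4.12. With either block 0 pathway genes fell. Map2k6 was 10.8 in numbers 1 to 3 alone, against a TOX WT library at 0 counts, which is no bound, and Mapk13 could not be fitted there or with the filter of 1 CPM in 4 libraries.

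Genes called higher and lower, 61 and 384 as reported, were 613 and 999 with DESeq2, 204 and 680 with limma-voom, 17 and 1862 with receptor scaling, 121 and 1033 in numbers 4 to 8 alone, 316 and 79 in numbers 1 to 3 alone, 39 and 356 with no filter, 116 and 395 with the library number term, and 92 and 326 with the GC trend removed, a fit over the 11629 of 14214 tested genes with a GC value. The median of all genes was -0.92 with receptor scaling, 0.37 in numbers 1 to 3 alone, 0.14 with the GC trend removed and -0.30 with no filter. Pathway genes called were 9 higher and 2 lower with DESeq2, 2 and 0 with limma-voom, 1 and 0 with the library number term, 1 and 1 with the GC trend removed, 0 and 3 with receptor scaling, and 0 and 0 in numbers 1 to 3 alone and with the B cell score. Some estimates below the threshold changed sign. Traf2 was -0.48 and Zfp36 -0.16 with receptor scaling. Map2k3 was -0.80 with the block by library number, -0.91 in numbers 1 to 3 alone and -0.066 with the GC trend removed. Mapk14 was -0.28 with the library number term and -0.54 in numbers 4 to 8 alone. Map2k6 was 1.78 with limma-voom, 0.55 with the replicate block, 0.28 with the library number term and 0.56 with the GC trend removed. Ptpn5 was 5.43 in numbers 1 to 3 alone, 1.3 with the block by library number and 2.77 with the B cell score. The cause was not tested.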
